A study of Mus musculus with 6 samples.

Results

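The genes described here are the nuclear genes of respiratory complexes II to V, of cytochrome c, and of a set of complex IV assembly factors, measured by RNA-Seq in mouse Tregs with and without the zinc finger protein Zfp335. They were chosen by symbol: Cycs, Cyc1, Sdha to Sdhd, every gene whose symbol begins with Uqcr or Atp5, and every gene named Cox followed by a digit. This gave 52 of the 13709 genes in the count table, and all 52 passed the filter on low counts. They comprised 4 genes of complex II, 9 of complex III, 1 of cytochrome c, 12 subunit genes of complex IV, 9 assembly genes of complex IV (Cox10 to Cox20), and 17 genes of complex V.

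Tregs are the Foxp3-expressing CD4+ T cells that keep other T cells in check. WT samples were CD4+YFP+CD25+ Tregs of Foxp3Cre mice (n = 3), and KO samples were the same cells of Foxp3Cre Zfp335fl/fl mice (n = 3), all on the C57BL/6 background and 2 weeks old per the study's methods. Both genotypes carried Cre and YFP driven by Foxp3, so Zfp335 was deleted in cells that had switched on Foxp3, and the cells were sorted by that same reporter. The labels named lymph nodes in some fields and spleen in others, and did not say whether a sample was 1 mouse or a pool, so p-values measure only the spread between these samples. The library labels were checked with Zfp335, which was at 101, 94.3 and 103 CPM in the 3 WT samples and at 37.0, 37.9 and 40.2 in the 3 KO samples (CPM, counts scaled to a common library total).

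Respiratory complexes sit in the inner mitochondrial membrane. Complex II passes electrons from succinate to ubiquinone, complex III passes them from ubiquinone to cytochrome c, and complex IV passes them from cytochrome c to oxygen, while complex V uses the resulting proton gradient to make ATP. Most subunits are encoded in the nucleus, but complexes I, III, IV and V also hold subunits encoded by mitochondrial DNA (mtDNA), and complex II does not. Many nuclear respiratory genes carry binding sites for NRF1, GABP (an ETS family factor) or YY1 near their start, and Tregs are known to rely on oxidative phosphorylation for energy.

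Library totals ranged from 32032631 to 40728419 counts. After the same scaling, 3 counts, taken as the smallest level told from 0, corresponded to 0.0747 to 0.0913 CPM, a floor that covers counting error only. WT replicate 3 stood apart from the other WT samples: the biological coefficient of variation was 0.263 within WT, 0.126 for WT replicates 1 and 2, and 0.070 within KO. Of 4 genes that mark these cells, Foxp3 was called lower in KO (log2 fold change -0.88, SE 0.21, edgeR adjusted p = 0.0122) but was present at 459.7 CPM or more in every sample. Cd3e fell (-0.45, adjusted p = 0.0114), Cd4 rose (0.26, adjusted p = 0.0143) and Il2ra, which encodes CD25, did not pass (-0.12, adjusted p = 0.558). Summed CPM of 9 proliferation markers was 957 to 1688 in WT, lowest in replicate 3, and 4032 to 4241 in KO, with 9 of 9 markers higher in KO. Summed CPM of 5 myeloid markers was 8.41 to 19.4 in WT and 41.2 to 47.8 in KO, with 5 of 5 higher, although S100a8 and S100a9 were at 0 in all WT samples. Summed CPM was 0.451 to 1.47 in WT and 6.84 to 10.2 in KO for 3 dendritic cell markers. Of these, only Itgax was called higher, at a mean of 0.436 CPM in WT and 7.03 CPM in KO (edgeR adjusted p = 0.00179). Flt3 and Siglech did not pass. For 2 NK cell markers, summed CPM was 1.71 to 2.58 in WT and 3.39 to 5.05 in KO, and Klrb1c was called higher. For 2 CD8 T cell markers it was 9.32 to 13.2 in WT, and all KO samples lay within that range, although Cd8a was called higher (200.1% of the WT mean, adjusted p = 0.0665). None of 3 B cell and 3 erythroid markers passed. The part of these differences in the results below was not tested.

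Promoter sequence was examined because the 3 factors named above are the textbook regulators of these genes. RefSeq (GRCm38.p6, the assembly named mm10) gave a promoter of 250 bases before and 50 bases after the start for 41 of the 52 genes, 45 promoters in all. The NRF1 core GCGCANGCG, read on both strands, was in 13 of the 45 (28.9%), against 12.3% of promoters of all tested genes. The ETS core CCGGAAG was in 19 (42.2%), against 16.6%, and the YY1 core AANATGGCG was in 4 (8.9%), against 4.6%. No match of 1 motif overlapped a match of another in these promoters, and a match is a description of sequence only.

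Stretches before the RefSeq start of 4 genes are shown with matches in capitals: a rise past the fold cutoff with an NRF1 core (Cycs), a smaller rise with several (Cox6a1), a rise past the cutoff with none of the letters (Cox5a), and the only fall past the cutoff (Cox7a2l). The Cycs stretch is chr6:50566570-50566669 (minus strand), the Cox6a1 stretch chr5:115349058-115349128 (minus strand), the Cox5a stretch chr9:57521132-57521231 (plus strand) and the Cox7a2l stretch chr17:83514334-83514433 (minus strand), each written 5′ to 3′ on the strand of the gene.
Cycs: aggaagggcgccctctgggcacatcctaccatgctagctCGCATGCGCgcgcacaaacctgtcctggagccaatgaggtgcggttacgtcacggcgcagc
Cox6a1: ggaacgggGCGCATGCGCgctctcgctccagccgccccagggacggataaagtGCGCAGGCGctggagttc
Cox5a: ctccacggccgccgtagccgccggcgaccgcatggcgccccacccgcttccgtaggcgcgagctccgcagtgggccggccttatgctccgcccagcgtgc
Cox7a2l: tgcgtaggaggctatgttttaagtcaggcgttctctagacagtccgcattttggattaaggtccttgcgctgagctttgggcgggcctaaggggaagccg
In Cycs the match began 61 bases before the start. In Cox6a1 the matches began 162, 161 and 117 bases before it, the first of them overlapping on the opposite strands because the letters are nearly the same read either way. The RefSeq start of Cox7a2l lies 3 bases from a start of its coding transcripts in GENCODE, but 2997 bases inside the GENCODE gene. The Cox7a2l stretch is therefore within the gene interval given below. RefSeq starts lay more than 250 bases inside the GENCODE gene for 8 of the 41 genes.

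As a group these genes moved little, and mostly upward. The log2 fold change was above 0 in 38 of the 52 and below 0 in 14, with a median of 0.13 against -0.04 over all 13594 genes tested, and it ran from -0.78 for Cox7a2l to 0.69 for Cycs. With adjusted p under 0.1 and no fold cutoff, which is what "rose" and "fell" mean below, 17 of the 52 rose (32.7%) where 22.7% of all genes tested did, and 4 fell (7.69%) where 24.3% of all genes did. Calls required in addition more than a 1.5-fold difference. Only 3 of the 52 were called higher (5.77%), against 11.9% of all genes, and 1 was called lower (1.92%), against 12.5%. The KO and WT samples did not overlap in 27 of the 52 (51.9%), against 53.8% of all genes. The count that rose was 14 to 22 with any 1 sample left out, and was 17 without WT replicate 3. The count that fell dropped to 1, Cox7a2l, without WT replicate 2 or without any 1 of the KO replicates. In bulk samples, more cells of a type and more RNA per cell cannot be told apart.

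**Figure D1:**
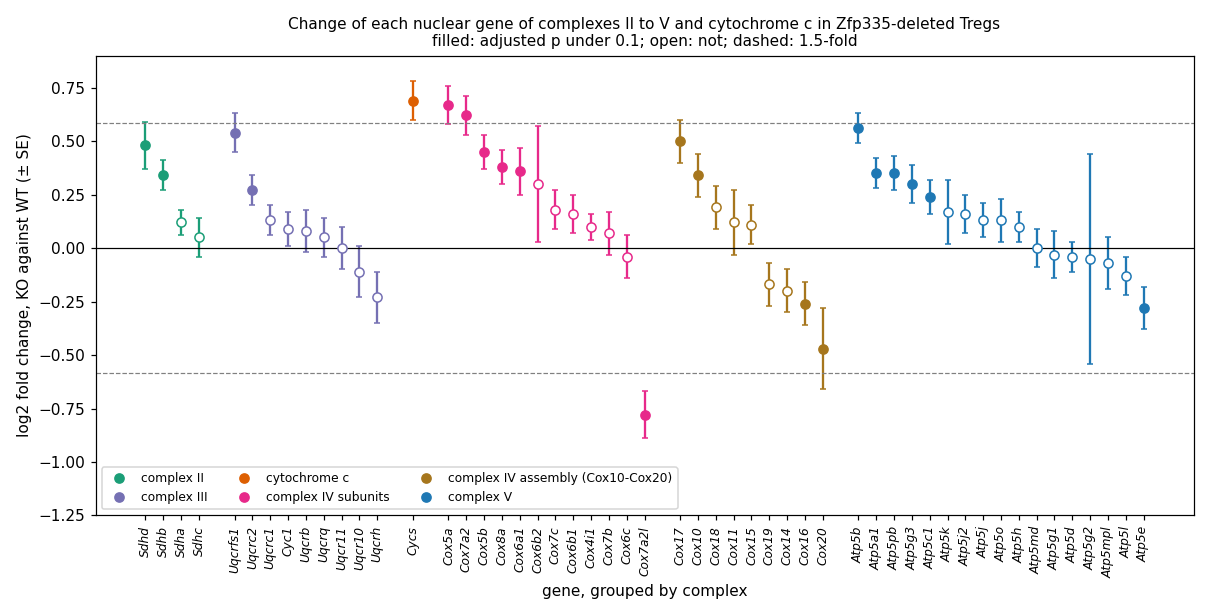
Log2 fold change of each of the 52 genes in KO against WT Tregs (points, with SE as whiskers), grouped by complex along the horizontal axis. Filled points passed adjusted p under 0.1, and Cycs, Cox5a and Cox7a2 lie above the dashed line of 1.5-fold while Cox7a2l lies below the lower one.

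**Figure D2:**
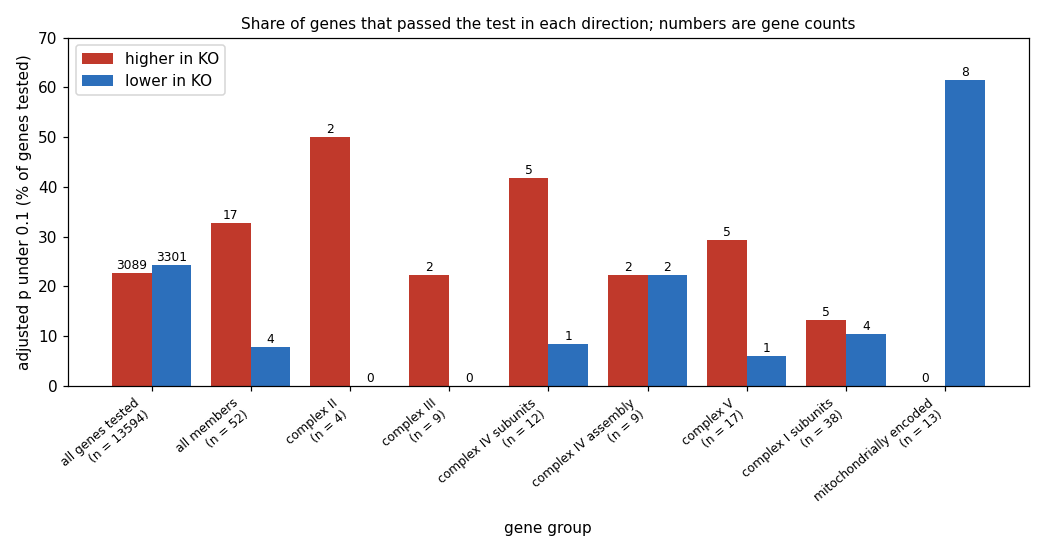
Percent of genes that passed adjusted p under 0.1 in each direction (vertical axis, bars) in each gene group, with gene counts above the bars. Among the 52 genes (all members), 17 were higher and 4 lower, whereas over all genes tested both directions were near equal, and 8 of 13 mtDNA-encoded genes were lower.

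Cycs, the single somatic gene for cytochrome c, which carries electrons from complex III to complex IV and triggers apoptosis when it leaves mitochondria, had the largest rise. It lies on chromosome 6 at 50562563 to 50566538 (mm10). Its level was 39.0, 45.3 and 46.7 CPM in WT and 68.8, 73.3 and 69.8 CPM in KO, in the order of replicates 1 to 3 as for all values below. Every KO sample was above every WT sample, and KO stood at 162% of the WT mean (log2 fold change 0.69, SE 0.09, edgeR adjusted p = 0.000824). Cycs has 4 near-identical copies in the transcript annotation, 1 of them coding, so its count is uncertain. Hccs, the enzyme that attaches heme to cytochrome c, rose as well (log2 fold change 0.52, adjusted p = 0.00471), and it overlaps Arhgap6.

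In complex II, the catalytic iron-sulfur subunit and 1 membrane anchor rose, and no gene fell. The group median was 0.23 on the log2 scale, and summed CPM in KO was 116% of WT. Sdhd, a membrane anchor that binds heme and ubiquinone, was at 69.9, 65.1 and 53.3 CPM in WT and at 91.3, 81.7 and 89.4 CPM in KO. All 3 KO values exceeded the WT values, of which replicate 3 was the lowest (log2 fold change 0.48, SE 0.11, adjusted p = 0.0105). Sdhb, the iron-sulfur subunit, was at 77.9, 85.3 and 75.0 CPM in WT and at 99.7, 99.0 and 102 CPM in KO. Its groups were also apart (log2 fold change 0.34, SE 0.07, adjusted p = 0.00764). Sdha, the flavoprotein that oxidizes succinate, was at 212, 211 and 201 CPM in WT and at 235, 219 and 223 CPM in KO. The Sdha groups did not overlap, but the difference did not pass (log2 fold change 0.12, adjusted p = 0.194). Sdhc, the other anchor, was at 51.4, 55.1 and 53.4 CPM in WT and at 60.3, 50.2 and 55.0 CPM in KO. Its groups overlapped (log2 fold change 0.05, adjusted p = 0.693). Within this complex, 2 of 4 nuclear genes thus passed adjusted p under 0.1, both as rises. Of all genes tested, 47.0% passed in either direction, 22.7% as rises and 24.3% as falls. The count that passed in complex II is therefore near that of all genes, and 4 genes are too few to compare directions.

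In complex III, 2 of 9 genes rose (22.2%) and none fell, beside the 22.7% and 24.3% of all genes. At an unadjusted p under 0.05 the count of falls was also 0 for complexes II and III, as it was with DESeq2. The median was 0.08 on the log2 scale. Uqcrfs1, the Rieske iron-sulfur protein that takes electrons from ubiquinol, was at 64.1, 74.3 and 77.7 CPM in WT and at 100.5, 107 and 107 CPM in KO. Its KO samples stood well above its WT samples (log2 fold change 0.54, SE 0.09, adjusted p = 0.00217). Uqcrc2, a core subunit, rose by less (log2 fold change 0.27, adjusted p = 0.0191) and overlaps Pdzd9 in the annotation. Cyc1, which encodes cytochrome c1, the subunit that hands electrons to cytochrome c, was at 84.1, 78.4 and 87.6 CPM in WT and at 83.5, 89.7 and 93.2 CPM in KO. The groups overlapped (log2 fold change 0.09, adjusted p = 0.383), unlike those of its partner Cycs. Uqcrh, the hinge protein between those cytochromes, had the lowest value of the complex. It was at 114, 159.9 and 149.9 CPM in WT and at 127, 117 and 117 CPM in KO, with WT replicate 1 inside the KO range (log2 fold change -0.23, adjusted p = 0.18), and without that replicate it passed as lower.

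Complex IV subunit genes held the largest fall of the 52 genes and, after Cycs, the next largest rises. Of 12, 5 rose (41.7%) and 1 fell (8.33%), against 22.7% and 24.3% of all genes. The median log2 fold change was 0.24, and without WT replicate 2 the count that rose was 8. Cox5a, which binds to the matrix face of the catalytic core, lies on chromosome 9 at 57521274 to 57532426. It was at 44.0, 46.6 and 39.4 CPM in WT and at 64.6, 68.9 and 73.0 CPM in KO. The lowest KO sample was above the highest WT sample (log2 fold change 0.67, SE 0.09, adjusted p = 0.00101), and no near-identical copy or overlapping coding gene was found for it. Cox7a2, the widely expressed form of subunit VIIa, lies on chromosome 9 at 79755361 to 79759878. It was at 33.9, 40.1 and 34.3 CPM in WT and at 55.8, 55.9 and 55.0 CPM in KO, with nearly equal KO samples (log2 fold change 0.62, SE 0.09, adjusted p = 0.00125). Cox7a2 fell short of the fold cutoff without WT replicate 1 or 3, at log2 fold changes of 0.58 in both, and RefSeq places Tmem30a over it, so its count is uncertain. Smaller rises were found for Cox5b (log2 fold change 0.45, adjusted p = 0.00336), Cox8a (0.38, adjusted p = 0.00754) and Cox6a1 (0.36, adjusted p = 0.0315), which all encode small nuclear subunits around the core. Cox5b has 1 near-identical copy, and the rise of Cox6a1 did not pass without KO replicate 2 or 3. Cox4i1, the subunit through which ATP is known to inhibit the enzyme, did not pass (log2 fold change 0.10, adjusted p = 0.243).

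Cox7a2l fell. It encodes SCAFI, a relative of subunit VIIa that links complexes III and IV into supercomplexes, and the C57BL/6 strain is known to carry a shortened allele of it. The gene lies on chromosome 17 at 83501918 to 83517330. It was at 209, 240.2 and 278 CPM in WT and at 144, 134 and 147 CPM in KO. The highest KO sample lay below the lowest WT sample, and KO stood at 58.3% of the WT mean (log2 fold change -0.78, SE 0.11, adjusted p = 0.00119). One near-identical noncoding copy makes its count uncertain. Summed CPM of the 12 complex IV subunit genes in KO was 105.5% of WT with Cox7a2l and 118.6% without it.

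**Figure D3:**
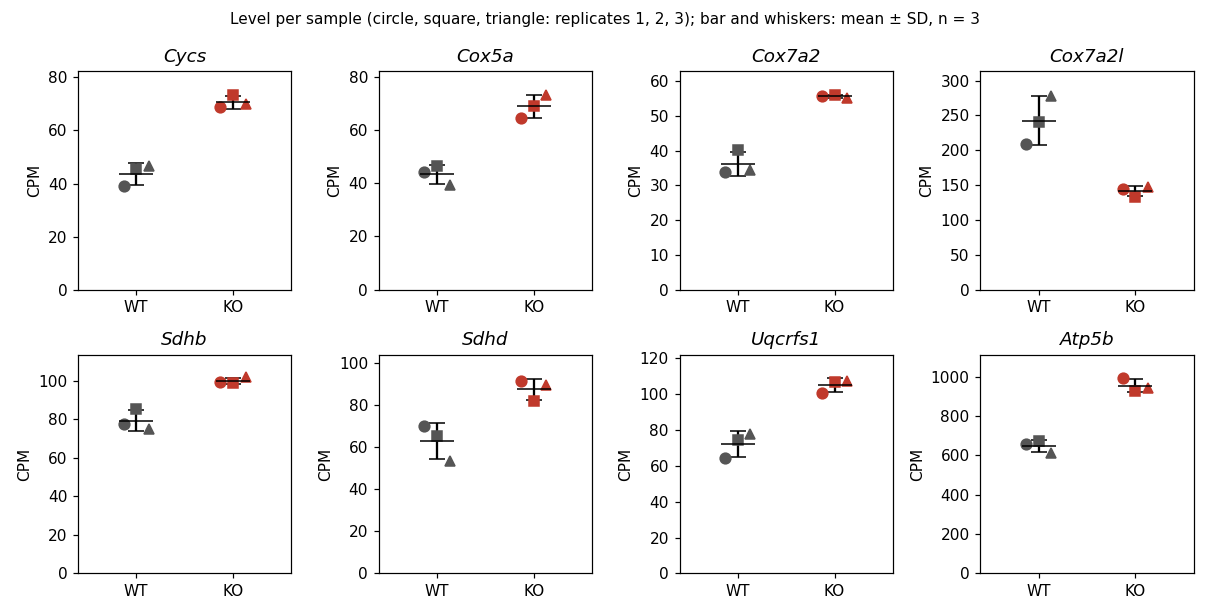
CPM of 8 genes in each WT and KO sample (vertical axes from 0, symbols for replicates 1 to 3, with mean and SD). In each panel the KO samples lie apart from the WT samples, below them for Cox7a2l and above them for the other 7.

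Paralogs that encode alternative forms of one subunit were compared as shares of their group, per length of transcript. Cox7a2l made up 79.1%, 78.6% and 83.2% of the summed level of Cox7a2 and Cox7a2l in WT and 61.2%, 59.4% and 62.1% in KO, with Cox7a1 absent from the table. The mean share was 80.3% ± 2.55 (SD, n = 3) in WT and 60.9% ± 1.36 (SD, n = 3) in KO, a difference of -19.4 percentage points. A two-sided exact permutation test gave p = 0.1, the smallest it can give with 3 against 3 samples (0.25 adjusted over the 5 shares tested), so no share could reach 0.05. Cox6b2, a form of subunit VIb known from testis, stayed low at 3.64, 2.89 and 2.1 CPM in WT and 3.34, 4.01 and 3.32 CPM in KO. Its share beside Cox6b1 was 3.53% ± 1.23 (SD, n = 3) in WT and 3.82% ± 0.253 (SD, n = 3) in KO, and the groups overlapped (exact permutation p = 0.8). Cox4i2, Cox6a2, Cox8b and Cox8c, forms known mainly from lung, muscle, fat or testis, were not in the table, so no shares could be given for their groups.

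Assembly genes of complex IV moved both ways. Of 9, 2 rose and 2 fell (22.2% each), near the shares of all genes, and the median was 0.11. Cox17, the copper chaperone that supplies the copper centers, was at 30.1, 36.8 and 32.3 CPM in WT and at 50.1, 45.2 and 45.2 CPM in KO. The groups were apart (log2 fold change 0.50, SE 0.10, adjusted p = 0.00578). Cox10, which makes the precursor of heme A, rose as well (log2 fold change 0.34, adjusted p = 0.0323), but not without KO replicate 2. Cox20, a chaperone of the mtDNA-encoded subunit COX2, was at 18.1, 23.7 and 14.6 CPM in WT and at 11.6, 14.3 and 14.9 CPM in KO. KO replicate 3 overlapped WT replicate 3, and the fall was close to the threshold (log2 fold change -0.47, SE 0.19, adjusted p = 0.0903). Cox16, which acts on the same subunit, fell by 0.26 on the log2 scale (adjusted p = 0.0685). Neither fall passed without WT replicate 2 or without any 1 of the KO replicates, nor did that of Cox20 without WT replicate 1. Cox17 overlaps the coding gene Gm21987, Cox20 overlaps Hnrnpu and has a near-identical copy, and Cox16 overlaps Adam4.

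In complex V, Atp5b of the catalytic head had the largest rise. Of 17 genes, 5 rose (29.4%) and 1 fell (5.88%), against 22.7% and 24.3% of all genes, and the median was 0.13. No complex V gene was called by edgeR, against 24.4% of all genes. None was called with an unadjusted p under 0.05 in place of the adjusted p, or by DESeq2, either. Without KO replicate 1 the count that rose was 3, and Atp5c1 and Atp5g3 were the genes lost. Atp5b, the catalytic beta subunit of the F1 head, was at 658, 674 and 613 CPM in WT and at 992, 928 and 941 CPM in KO. KO was 147% of WT, just short of the fold cutoff, with the smallest adjusted p of the 52 genes (log2 fold change 0.56, SE 0.07, adjusted p = 0.000698). Atp5a1, the alpha subunit beside it, rose by 0.35 (adjusted p = 0.00757), and Atp5c1, the rotating gamma subunit, by 0.24 (adjusted p = 0.0548) on the log2 scale. Atp5pb, of the peripheral stalk that holds the head in place, rose by 0.35 (adjusted p = 0.0136). The rise of Atp5c1 did not pass without WT replicate 1 or without any 1 of the KO replicates. Atp5a1 overlaps Haus1, Atp5pb overlaps Wdr77, and Atp5c1 and Atp5pb each have 1 near-identical copy.

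Atp5e, the small epsilon subunit of the stalk of the head, was the 1 complex V gene that fell. It was at 75.9, 95.0 and 76.6 CPM in WT and at 64.0, 71.0 and 68.8 CPM in KO (edgeR log2 fold change -0.28, SE 0.10, adjusted p = 0.0645). Its groups did not overlap, and WT replicate 2 was the highest. The fall did not pass without WT replicate 2 or without any 1 of the KO replicates. Atp5l, subunit g of the membrane part, was at 92.8, 116 and 100.4 CPM in WT and at 93.2, 97.0 and 92.1 CPM in KO. The groups overlapped (log2 fold change -0.13, adjusted p = 0.295), and Atp5l has 9 near-identical copies.

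The proton-turned ring of subunit c is encoded by 3 genes that give the same mature protein. Atp5g3 was at 123, 135 and 108 CPM in WT and at 158, 144 and 149.7 CPM in KO, and it rose (log2 fold change 0.30, SE 0.09, adjusted p = 0.0347), though not without KO replicate 1. Atp5g1 was at 62.4, 79.9 and 66.8 CPM in WT and at 63.9, 74.7 and 66.7 CPM in KO, with overlapping groups (log2 fold change -0.03, adjusted p = 0.876). Atp5g2 was at 9.89, 31.8 and 36.9 CPM in WT and at 13.4, 31.8 and 30.5 CPM in KO. In Atp5g2, replicate 1 was low in both genotypes, which left the widest error of the 52 genes (log2 fold change -0.05, SE 0.49, adjusted p = 0.946). Per length of transcript, Atp5g1 made up 36.1% ± 0.408 (SD, n = 3) of the 3 genes in WT and 31.9% ± 1.74 (SD, n = 3) in KO, without overlap (exact permutation p = 0.1, 0.25 adjusted). Atp5g3 made up 53.1% ± 5.66 (SD, n = 3) in WT and 58.6% ± 4.78 (SD, n = 3) in KO, with overlap (exact permutation p = 0.3). Atp5g1 and Atp5g2 have 1 and 2 near-identical copies.

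**Figure D4:**
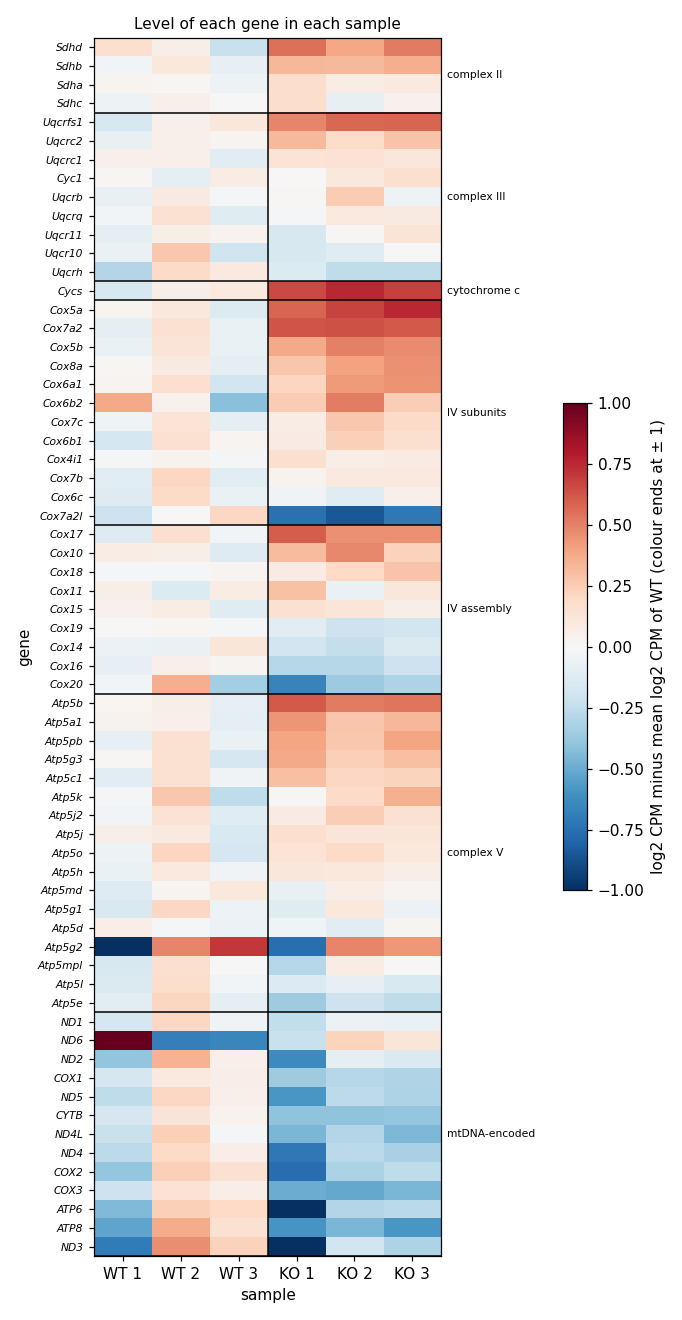
Level of each of the 52 genes and of the 13 mtDNA-encoded genes (rows) in each sample (columns), as log2 CPM minus the mean log2 CPM of WT (color, which ends at 1 in both directions). Rises of Cycs, Cox5a, Cox7a2 and Atp5b and the fall of Cox7a2l recur in all 3 KO samples, mtDNA-encoded genes are mostly lower in KO, and Atp5g2 is low in replicate 1 of both genotypes.

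Per length of transcript, the level of these genes spanned a wide range in WT. Atp5b was highest at 338 ± 16.4 CPM per kilobase (SD, n = 3), followed by Cox4i1 at 301 ± 6.48 and Atp5a1 at 284 ± 14.7. The WT samples of Cox4i1 (296.2 to 308.1) lay above those of Atp5a1 (266.7 to 293.4). Cox7a2l was at 225 ± 32.2 CPM per kilobase in WT and at 131.5 in KO, so it passed from above Cox6a1 (150.0 in WT and 192 in KO) to below it. Cycs was low on this scale, at 14.0 ± 1.32 CPM per kilobase, with a transcript of 3123 bases, and Cox6b2 was lowest at 5.21 ± 1.39. Lengths are uncertain for some genes, as the annotation also holds principal transcripts of 4715 bases for Atp5g1, 3690 for Cox17 and 2733 for Atp5md, where 596, 444 and 362 were used. Smaller gaps were found for Atp5mpl (366 used and 612 longest), Atp5d (931 and 1410) and Cox6c (503 and 738).

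WT replicates differed among themselves for these genes. WT replicate 2 was the highest WT sample in 38 of the 52 genes, whereas it was highest in 4186 of all 13594 genes. WT replicate 3, where proliferation markers were lowest, was the lowest WT sample in 24 of the 52 (46.2%), against 39.3% of all genes. It was lowest in 9 of the 17 genes that rose (52.9%). WT replicate 1, where summed proliferation markers were highest, was the lowest WT sample in 24 of the 52 as well, against 4123 of all 13594 genes. Among the 17 genes that rose, WT replicate 1 was lowest in 8. Without WT replicate 3, 17 genes rose and 5 fell, and Cox20 and Uqcrfs1 then passed the fold cutoff whereas Cox7a2 did not.

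The mtDNA-encoded partners of these subunits went the other way. All 13 protein-coding genes of mtDNA had a log2 fold change below 0, with a median of -0.41, and 8 fell (61.5%) against 24.3% of all genes. COX1, COX2 and COX3, the catalytic core that the nuclear Cox subunits surround, fell by 0.32, 0.45 and 0.50 on the log2 scale (adjusted p = 0.0183, 0.095 and 0.00526). CYTB, the mtDNA-encoded subunit of complex III, was at 2520.2, 3090.3 and 2904 CPM in WT and at 2145, 2141 and 2166 CPM in KO (edgeR log2 fold change -0.40, SE 0.08, adjusted p = 0.00764). ATP8, a membrane subunit of complex V, was the 1 called gene among them (log2 fold change -0.59, SE 0.20, adjusted p = 0.05), and it overlaps ATP6. COX3 overlaps ATP6 in RefSeq as well. The called status of ATP8 was lost with DESeq2, and without WT replicate 2 or 3 or any 1 of the KO replicates. This call held in 4 of the 15 alternatives to the main fit. The count that fell was 4 without WT replicate 2, 3 without KO replicate 1 and 4 without KO replicate 3.

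Summed by complex, nuclear and mtDNA-encoded genes moved apart. For complex III, nuclear genes in KO summed to 107.6% of WT and CYTB to 75.8%, and neither sum overlapped between the genotypes. For complex IV, nuclear subunit genes summed to 105.5% with overlap, and the 3 mtDNA-encoded genes to 77.2% without overlap. For complex V, nuclear genes summed to 122.3% without overlap, and the 2 mtDNA-encoded genes to 67.7% with overlap, as replicate 1 was the lowest in each genotype. Without Atp5a1 and Atp5b, the other 15 nuclear genes of complex V summed to 107.9% and overlapped. The difference between nuclear and mtDNA-encoded genes was not tested.

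**Figure D5:**
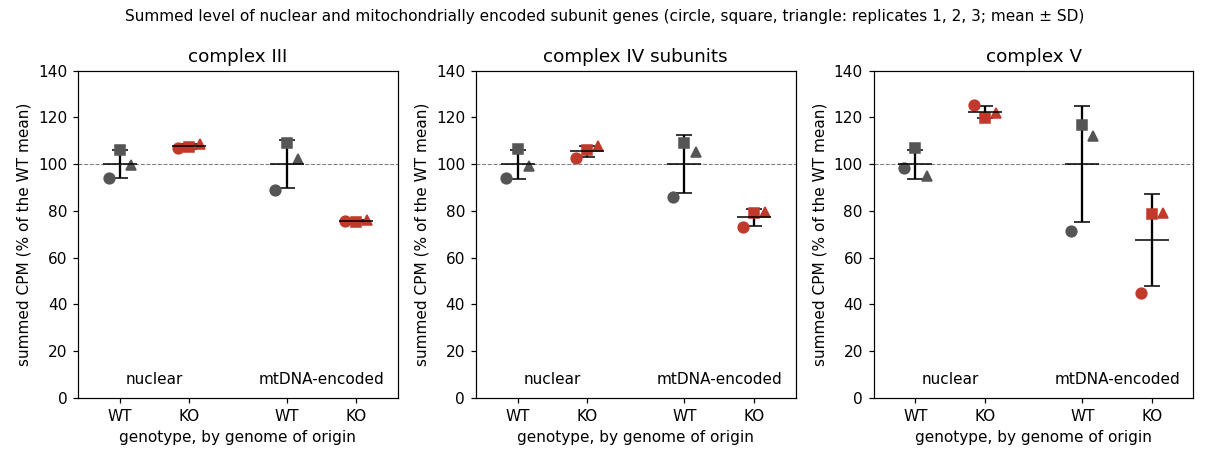
Summed CPM of nuclear and of mtDNA-encoded subunit genes of complexes III, IV and V in each sample, as percent of the WT mean (vertical axis from 0, symbols for replicates 1 to 3, with mean and SD). Nuclear sums in KO lie at 105.5% to 122.3% of WT and mtDNA-encoded sums at 67.7% to 77.2%, with replicate 1 lowest among the mtDNA-encoded sums of WT and of complexes IV and V in KO.

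Other genes of the pathway were counted for comparison. Of 38 nuclear subunit genes of complex I, 5 rose (13.2%) and 4 fell (10.5%), against 22.7% and 24.3% of all genes. The median log2 fold change was 0.06, with a range from -0.57 for Ndufb4b to 0.33 for Ndufa9. No complex I subunit gene was called by edgeR, against 24.4% of all genes. None was called with an unadjusted p under 0.05 or by DESeq2 either. With 1 sample left out the counts ran from 1 that rose (without KO replicate 1 or 3) to 11 (without WT replicate 2), and from 0 that fell (without KO replicate 1) to 8 (without WT replicate 3). Of 8 complex I assembly genes, none rose and 1, Ndufaf4, fell (log2 fold change -0.36, adjusted p = 0.0578), and Ndufaf2 had the highest value (0.39, adjusted p = 0.167). Ndufa4, now known as a complex IV subunit despite its name, was at 64.8, 73.5 and 66.8 CPM in WT and at 52.9, 56.2 and 52.9 CPM in KO. It fell (log2 fold change -0.34, SE 0.08, adjusted p = 0.0104), as Cox7a2l did, while 5 Cox subunit genes rose.

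Of 35 further assembly factors of complexes II to V, 5 rose and 5 fell (14.3% each), against 22.7% and 24.3% of all genes, and 4 were called (11.4%), against 24.4% of all genes. Without KO replicate 1, 2 or 3 the count that fell was 2, 3 and 3, and without WT replicate 3 it was 9. Cmc2, a factor of complex IV assembly, was at 6.38, 6.18 and 4.06 CPM in WT and at 14.1, 11.8 and 13.5 CPM in KO (edgeR log2 fold change 1.24, SE 0.20, adjusted p = 0.00218), and it overlaps Cenpn and Atmin in RefSeq. Sco1, which passes copper from Cox17 to COX2, was at 13.6, 14.1 and 14.1 CPM in WT and at 21.8, 24.4 and 21.2 CPM in KO (edgeR log2 fold change 0.69, SE 0.10, adjusted p = 0.00154), and it overlaps Adprm. Both sets of KO samples lay above the WT samples, as for Cox17 itself. Sdhaf1, which helps insert iron-sulfur clusters into Sdhb, was called lower (log2 fold change -0.67, SE 0.10, adjusted p = 0.00143), the opposite direction to Sdhb, and overlaps E130208F15Rik. Fdxr, ferredoxin reductase of heme and iron-sulfur synthesis, was called lower too (log2 fold change -0.94, SE 0.12, adjusted p = 0.000712), at 53.1, 53.5 and 42.1 CPM in WT and 24.2, 25.6 and 27.7 CPM in KO.

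Of 12 regulators of respiratory genes, 4 rose and 4 fell (33.3% each), against 22.7% and 24.3% of all genes. No regulator was called by edgeR, against 24.4% of all genes. None was called with an unadjusted p under 0.05 or by DESeq2 either. Without any 1 of the KO replicates the counts were 2 and 2, and without WT replicate 1 the count that rose was 2. Gabpa, the DNA-binding subunit of GABP, rose by 0.38 on the log2 scale (adjusted p = 0.0141), Gabpb1, its partner, by 0.19 (adjusted p = 0.0712), Nrf1 by 0.21 (adjusted p = 0.0593), and Tfam, which packages and transcribes mtDNA, by 0.29 (adjusted p = 0.0172). Gabpa overlaps Atp5j. The coactivator genes Ppargc1b and Pprc1 fell by 0.48 (adjusted p = 0.0902) and 0.36 (adjusted p = 0.0045), Esrra, a nuclear receptor, by 0.38 (adjusted p = 0.0081), and Polrmt, the RNA polymerase of mitochondria, by 0.22 (adjusted p = 0.0615). Ppargc1a was not in the table.

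The letters of the 3 motifs were then counted by the direction in which the 52 genes moved. Among genes that rose, 14 had a promoter entry, and the NRF1 core was in 5 of them: Cycs, Cox6a1, Sdhd, Atp5c1 and Atp5g3. It was in none of the 4 genes that fell and in 8 of the 23 with an entry that did not pass. The ETS core was in 5 of 14 that rose, in 3 of 4 that fell (Atp5e, Cox16 and Cox20) and in 10 of 23 that did not pass. The YY1 core was in 2 of 14 (Atp5b and Cox10), 0 of 4 and 2 of 23. Cox5a, Cox7a2 and Cox7a2l, all past the fold cutoff, held none of the 3 motifs in this window. For Cox7a2l the window covers a start of its coding transcripts and not the outermost start of the gene.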

How the data were processed

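Total RNA of CD4+YFP+CD25+ Tregs of 3 WT and 3 KO samples was sequenced after TruSeq library preparation. The study's methods name SOAPnuke for read filtering, HISAT2 for alignment to mm10 (1 alignment kept for each read) and StringTie for quantification. The authors deposited whole-number counts per gene, not normalized; the gene annotation and any use of strand were not given in the sources used here, and low genes had been removed (the smallest gene sum was 60). The counts were tested with edgeR 4.0.16 in R 4.3.3 (filterByExpr with a minimum count of 10, TMM scaling, quasi-likelihood F-test over all 6 samples, no covariate, Benjamini-Hochberg over 13594 genes). The standard error (SE) is the log2 fold change divided by the square root of F. Called genes had a fold change above 1.5, p under 0.05 and adjusted p under 0.1.

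Positions, transcript lengths and overlaps came from GENCODE M21, and RefSeq was searched for overlaps as well. The length used was that of the shortest principal coding transcript, preferring those matched to RefSeq. Near-identical copies were found with BLAST 2.17.0 (at least 95% identity over 200 bases). At least 1 copy or overlapping coding gene was found for 28 of the 52 genes. Motif letters were searched in RefSeq promoters.

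The genes, lists and tests were chosen with earlier results of these data known. Named genes are those past a threshold, the extremes of each complex, complex II, Cyc1, Cycs, paralogs, Atp5l and Ndufa4. The mtDNA-encoded genes, listed without a prefix in the table, were found after the counts were seen, and those named, the regulators, Hccs and the genes in motif counts were chosen after their values were seen. Uqcc4 to Uqcc6, Pet117 and Ppargc1a were not in the table. Alternatives were DESeq2 1.42.0, other scalings and filters, each sample left out, the replicate number as a block, length and GC offsets, a test against 1.5-fold (glmTreat), and a stricter adjusted p. The procedure was tested on simulated data. Depth was 32032631 to 40728419 counts per sample, which limits precision by counting error only for the lowest genes.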

Additional observations from a re-analysis of the deposited data

How the results depend on the processing

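With DESeq2, other scalings, other filters, length and GC offsets, the replicate block or an adjusted p under 0.05, Cycs, Cox5a and Cox7a2l kept their calls, as did Cox7a2 except with library totals alone. No label ties same-numbered samples to a shared animal or batch, and they had correlations of 0.038, 0.040 and -0.012 in their deviations from the group means, and the block gave 19 genes past the threshold, 17 higher and 2 lower. With the block, falls were 0 in complex IV assembly, 3 in other assembly factors and 11 in mtDNA-encoded genes. A test against 1.5-fold called 1686 of all genes, 941 higher and 745 lower, 0 of the 52 genes, and 1 rise and 1 fall among other assembly factors. All other lists had 0. This test asks for a fold beyond 1.5 after allowing for its error, which the 4 of the 52 genes with an estimate over 1.5-fold did not reach.

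With an adjusted p under 0.05, falls numbered 1 in the 52 genes, 0 in complex IV assembly, complex V and both complex I lists, 3 in other assembly factors and 4 in mtDNA-encoded genes, and regulators had 2 rises and 2 falls. DESeq2 and its size factors each gave 1 fall in complex IV assembly and 2 in complex I, as did at least 10 counts in every sample for complex I. Library totals alone gave 3 rises in complex I, 2 in regulators, and medians of 0.069 for complex IV assembly and -0.106 for regulators. Length and GC offsets gave 10 rises and 2 falls in complex I, 0 falls in complex V, 2 in regulators, and medians of 0.137 (complex III), 0.076 (complex IV assembly) and -0.027 (regulators). Shares by counts not divided by length put Cox7a2l at -15.1 percentage points. The cause of these shifts was not tested.

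With 1 sample left out, the 52 genes had 1 to 2 called lower and 1 to 5 falls. Rises ran from 4 to 8 in complex IV subunits, 1 to 2 in complex IV assembly, 3 to 7 in complex V, 1 to 11 in complex I, 0 to 1 in its assembly factors, 2 to 4 in regulators and 0 to 1 in mtDNA-encoded genes. Falls ran from 0 to 1 in complex III, 0 to 2 in complex IV assembly, 0 to 1 in complex V, 0 to 8 in complex I, 0 to 2 in its assembly factors, 2 to 9 in other assembly factors, 2 to 4 in regulators and 3 to 11 in mtDNA-encoded genes. Medians ran from 0.144 to 0.288 (complex IV subunits), 0.029 to 0.132 (complex IV assembly) and -0.106 to -0.039 (regulators).

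Atp5g1, Atp5g2 and Sdhc, all near 0 and none past the threshold, changed sign. Atp5g1 ran from -0.100 to 0.078 with 1 sample left out (0.078 without WT replicate 2 and 0.022 without KO replicate 1), and was at 0.060 with offsets. Atp5g2 ran from -0.444 to 0.282 (0.108, 0.282 and 0.252 without WT replicate 2, WT replicate 3 and KO replicate 1), and was at 0.046 with the block and 0.004 with offsets. Sdhc ran from -0.018, without KO replicate 1, to 0.114.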

Other observations

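Replicate 1 of both genotypes shared low values in a few genes. Atp5g2, a gene for subunit c of ATP synthase, was at 9.89 CPM in WT replicate 1 and 13.4 CPM in KO replicate 1, against 30.5 to 36.9 CPM in the other samples. ND3, an mtDNA-encoded subunit of complex I, was at 136 CPM in WT replicate 1 and 87.7 CPM in KO replicate 1, against 179 to 306 CPM in the others. Over all genes tested, 6 differed in replicate 1 from the mean of the other replicates by more than 1 on the log2 scale, in the same direction in both genotypes (0.5 CPM added). The counts were 5 for replicate 2 and 6 for replicate 3, and Atp5g2 was the only 1 of the 52 genes among all of these. The labels name no batch, and whether the shared number marks a shared preparation was not tested.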
